A study of Mus musculus with 10 samples.

Results

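Cholesterol synthesis and SREBP2 target genes were followed as 28 named genes, looked up by symbol in a table of 24062 genes from mouse liver. They cover the supply of acetyl units, the mevalonate arm, the isoprenoid, squalene and sterol ring steps, the genes that control the transcription factor SREBP2, and further SREBP2 targets. All 28 were found and all 28 passed the filter on low values, among 12648 genes tested. Liver messenger RNA had been sequenced from mice on a normal or a Western diet that received carbon tetrachloride (CCl4), a liver toxin, or its oil vehicle. There was 1 library for each of the 8 combinations of diet, treatment and duration (12 or 24 weeks), made from a pool of 4 mice. A further 2 libraries came from hepatocellular carcinomas of single mice after 24 weeks of Western diet with CCl4. The sources used here do not give strain, sex, age, CCl4 dose or the hour of collection.

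Liver makes cholesterol from acetyl-CoA through mevalonate, isoprenoid diphosphates and squalene, which is closed into a ring and trimmed to cholesterol. When sterol in the endoplasmic reticulum is low, Scap carries SREBP2 to the Golgi, where proteases release its active part, and this part turns on nearly every gene of the pathway. When sterol is plentiful, the Insig proteins hold Scap and SREBP2 back and the genes are turned down together.

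Values are normalised read counts. Changes are differences of log2(value + 1) with the standard error (SE) of a limma fit across all tested genes, so the change of a low gene is understated. A gene was called higher or lower where its p-value, adjusted over all 12648 genes, was under 0.05. No combination had a replicate pool, so each p-value rests on how unequally the combinations of diet and treatment shifted between 12 and 24 weeks. A shift shared by all of them was taken out. In the tumour comparison the difference between the tumours enters as well. This spread was pulled towards that of other genes of similar level, and animals within a pool add nothing to it. Where values are given in pairs below, the 12-week pool comes before the 24-week pool, and tumour 1 before tumour 2.

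The libraries were liver by their markers. Albumin (Alb) read from 54802 to 203789 over the 10 libraries, while the 3 pancreas markers and the 2 fat cell markers each summed to less than 0.1 in every library. Ass1, also an abundant liver gene, was listed below 1 in every library and was not tested. Hepatocyte markers moved with CCl4: over both diets 6 of 9 tested were lower and 0 higher, with a median change of -0.60, and their summed value, to which Alb gave 69.9% to 80.5% in the 10 libraries, was 121582 to 160703 in the oil pools and 78433 to 116303 in the CCl4 pools. Markers of other cells were higher with CCl4 in 6 of 7 cases for macrophages (sum 185 to 442 with oil, 399 to 784 with CCl4), in 6 of 6 for stellate cells (57.4 to 179, then 292 to 668), in 2 of 4 for endothelial cells (87.7 to 137, then 127 to 173) and in 3 of 4 for bile duct cells (12.4 to 17.02, then 16.6 to 52.8). Of 4 lymphocyte markers 1 was higher and 1 lower, and of 2 neutrophil markers none was called. In this comparison 19% of all tested genes were higher and 14.2% lower. In bulk tissue, fewer cells of a type and less RNA per cell cannot be told apart, and the part of cell makeup in the results that follow was not tested.

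In oil-treated liver the members differed widely in level per kilobase of annotated exon. By the median of the 4 oil pools, the genes with the most reads per kilobase were Insig1 (143.9 per kilobase), the sterol desaturase gene Sc5d (139.9), Hmgcs1 (131.6) and the sterol isomerase gene Ebp (119.5). The ranges of these 4 over the oil pools overlapped between neighbours in that order. Ggps1, whose enzyme makes geranylgeranyl diphosphate for protein prenylation and not for sterols, was the lowest, at 1.38 per kilobase.

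With CCl4, the pathway was lower from its entry to its final steps. Taken over both diets, 24 of the 28 members were lower and 0 higher, where 14.2% of all tested genes were lower and 19% higher. Their median change was -1.46, against -0.01 over all tested genes. In 24 of the 28 all 4 CCl4 pools lay below all 4 oil pools, a pattern seen in 11.9% of tested genes. The summed value of the members was 4726 to 5656 in the oil pools and 2142 to 2598 in the CCl4 pools. The called members ranged from the sterol-responsive membrane protein gene Tmem97, at -0.41, to Idi1, at -3.33. Of the 24 calls, 23 held whichever pool was left out of the fit. That of Tmem97 was lost without the Western-diet oil pool at 24 weeks (adjusted p = 0.0612).

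**Figure D1:**
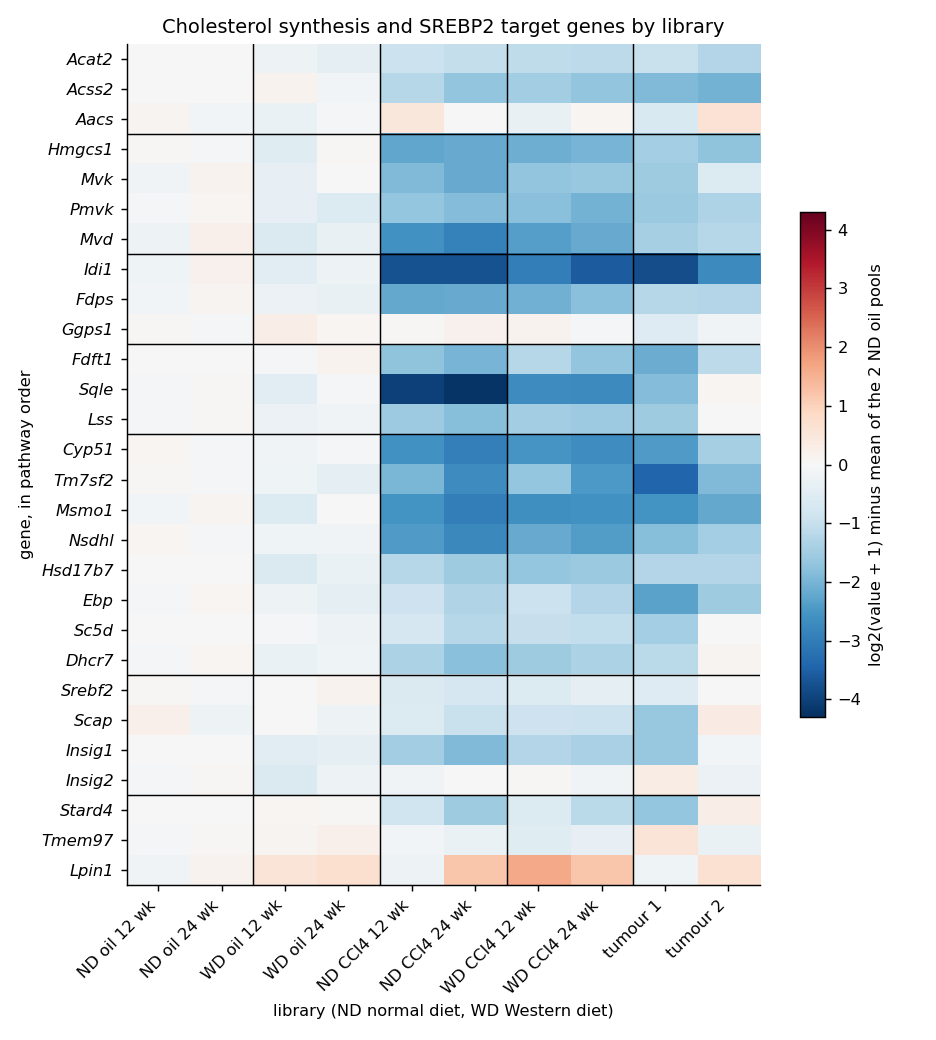
Each row is a member in pathway order and each column a library, with colour showing log2(value + 1) minus the mean of the 2 normal-diet oil pools and lines separating the roles and groups. The 4 CCl4 columns are blue in most rows, while the rows of Aacs, Ggps1, Insig2 and Tmem97 stay pale. Lpin1 is red in 3 of these 4 columns, and the 2 tumour columns differ from each other.

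The same direction was found on each diet taken alone. On normal diet 23 members were lower and 0 higher, against 10.6% and 15.3% of all tested genes, with a median of -1.64 against 0.00 over all tested genes. On Western diet 24 were lower and 0 higher, against 2.52% and 4.29%, with a median of -1.27 against -0.02. Pool by pool, the median change at 12 weeks was -1.40 on the normal and -1.18 on the Western diet, and at 24 weeks it was -1.87 and -1.37. On normal diet 22 of the 23 calls held whichever pool was left out, and that of Srebf2 was lost without its 24-week CCl4 pool (adjusted p = 0.0708). On Western diet only 9 of the 24 did (Acss2, Hmgcs1, Pmvk, Idi1, Fdps, Sqle, Cyp51, Msmo1 and Nsdhl). There leaving out the 24-week oil pool of that diet gave 9 calls and leaving out its 12-week oil pool gave 15, all lower. With the tumours added to the fit, 15 members were lower on normal diet and 4 on Western diet. With no filter, so that genes at 0 in every library entered the fit, these counts were 4 and 0.

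Joint exposure, Western diet with CCl4 against normal diet with oil, gave 24 members lower and 1 higher, against 10.2% and 15.7% of all tested genes, with a median of -1.49. It had 15 members lower with the tumours in the fit and 5 with no filter. It shares its control pools with the comparison of CCl4 on normal diet, and its exposed pools with that of CCl4 on Western diet. Sqle stood at -4.12 for CCl4 on normal diet, -2.45 for CCl4 on Western diet and -2.72 for the joint exposure. Idi1 stood at -3.73, -2.92 and -3.27 in the same order, and Cyp51 at -2.77, -2.51 and -2.61.

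**Figure D2:**
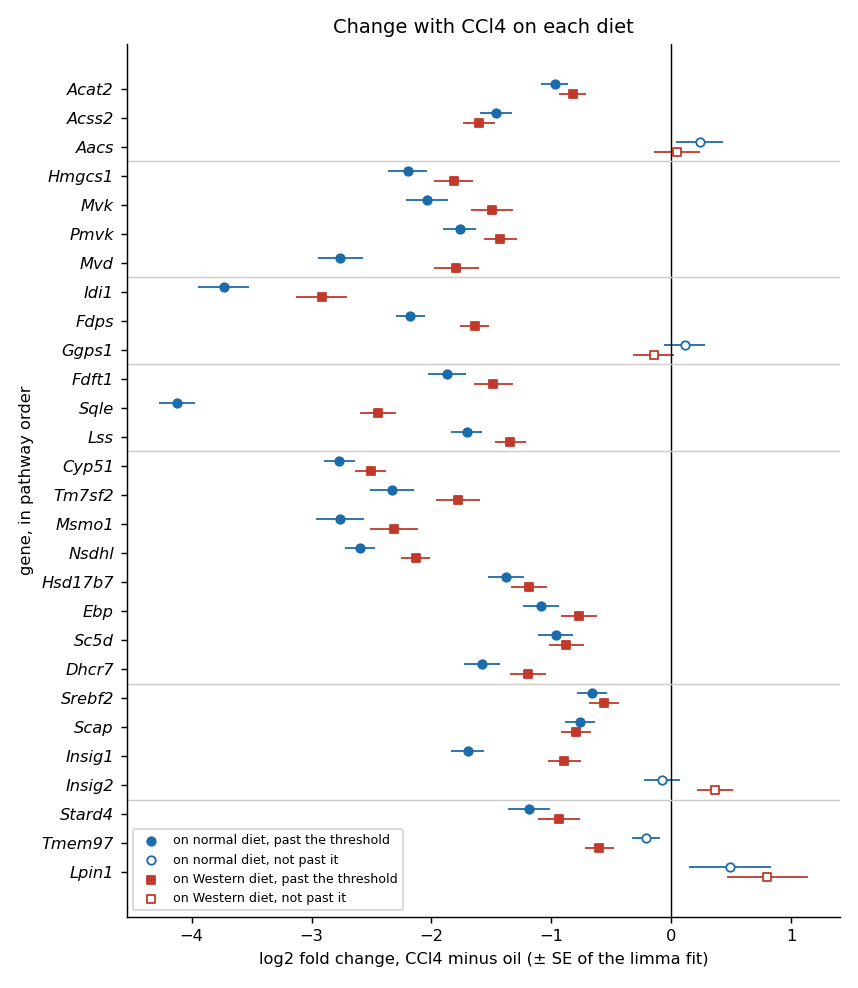
The change with CCl4 on the log2 scale is shown for each member on normal diet (circles) and on Western diet (squares), with bars of 1 SE of the limma fit and filled marks for changes past the threshold. Sqle lies at -4.12 for the normal and -2.45 for the Western diet, the widest gap among the members.

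Of the acetyl unit genes, Acss2 and Acat2 were lower and Aacs was not called. Acss2, whose enzyme makes acetyl-CoA from acetate, had values of 317 and 325 with oil on normal diet, 352 and 295 with oil on Western diet, 136 and 97.99 with CCl4 on normal diet and 114 and 97.8 with CCl4 on Western diet. Every CCl4 pool was well below every oil pool. Over both diets Acss2 fell by 1.53 ± 0.09 (SE), a 2.90-fold lower value (adjusted p = 3.28e-05). Acat2, the acetoacetyl-CoA thiolase of the cytosol, fell by 0.90 ± 0.08 (adjusted p = 1.44e-04). Aacs, which activates acetoacetate, read 75.3 and 64.7, then 57.6 and 67.2 in the oil pools of the 2 diets, and 97.1 and 69.8, then 55.8 and 74.2 in the CCl4 pools. These ranges overlapped, and its change of 0.14 ± 0.14 did not pass the test (adjusted p = 0.453).

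All 4 genes of the mevalonate arm were lower, with a median of -1.89. Mvd, which decarboxylates mevalonate diphosphate, read 37.1 and 51.2 with oil on normal diet, 28.3 and 34.6 with oil on Western diet, 6.32 and 4.93 with CCl4 on normal diet and 7.72 and 8.96 with CCl4 on Western diet. The lowest oil pool was thus more than 3 times the highest CCl4 pool. Mvd fell by 2.28 ± 0.13 (adjusted p = 2.40e-05). Hmgcs1, the synthase that opens the arm, fell by 2.01 ± 0.11, and the kinase gene Mvk fell by 1.77 ± 0.12. Pmvk, the kinase gene that follows it, was 3.02-fold lower.

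Of the isoprenoid genes, Idi1 and Fdps were lower and Ggps1 was not called. Idi1, the isomerase of isopentenyl diphosphate, read 76.1 and 97.8 with oil on normal diet, 62.2 and 73.2 with oil on Western diet, 5.57 and 5.55 with CCl4 on normal diet and 10.1 and 6.38 with CCl4 on Western diet. No CCl4 pool came near an oil pool. It fell by 3.33 ± 0.15, a 10.02-fold lower value (adjusted p = 7.76e-06). Fdps, the farnesyl diphosphate synthase, fell by 1.91 ± 0.08 (adjusted p = 7.76e-06). Ggps1, at the branch towards protein prenylation, read 6.43 and 6.08, then 7.95 and 6.64 in the oil pools of the 2 diets, and 6.44 and 7.27, then 6.99 and 5.98 in the CCl4 pools. The oil and CCl4 pools overlapped, and its change was -0.02 ± 0.12 (adjusted p = 0.927).

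All 3 squalene genes were lower. Sqle, the epoxidase that commits squalene to sterols, read 142 and 151 with oil on normal diet, 106 and 139 with oil on Western diet, 8.11 and 6.86 with CCl4 on normal diet and 21.4 and 21.3 with CCl4 on Western diet. The oil pools lay far above all CCl4 pools, and among the CCl4 pools those on normal diet were the lower. Over both diets it fell by 3.28 ± 0.11, a 9.75-fold lower value (adjusted p = 1.74e-06). Fdft1, the squalene synthase, fell by 1.68 ± 0.11, and Lss, which closes the lanosterol ring, fell by 1.52 ± 0.09.

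All 8 genes of the sterol ring steps were lower, with a median of -1.72. Cyp51, the lanosterol demethylase, read 296 and 264 with oil on normal diet, 249.6 and 272 with oil on Western diet, 45.4 and 35.4 with CCl4 on normal diet and 46.8 and 43.3 with CCl4 on Western diet. The 4 CCl4 pools were close to one another and far below the oil pools. Cyp51 fell by 2.64 ± 0.09, a 6.23-fold lower value (adjusted p = 2.16e-06). The methylsterol oxidase gene Msmo1 fell by 2.54 ± 0.14, the sterol dehydrogenase gene Nsdhl fell by 2.37 ± 0.09 and the sterol reductase gene Tm7sf2 fell by 2.05 ± 0.13. The remaining changes were smaller: the dehydrocholesterol reductase gene Dhcr7 fell by 1.39 ± 0.11, the ketoreductase gene Hsd17b7 fell by 1.28 ± 0.10, Ebp fell by 0.93 ± 0.11 and Sc5d fell by 0.92 ± 0.10. Whether these steps differed from the others was not tested.

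**Figure D3:**
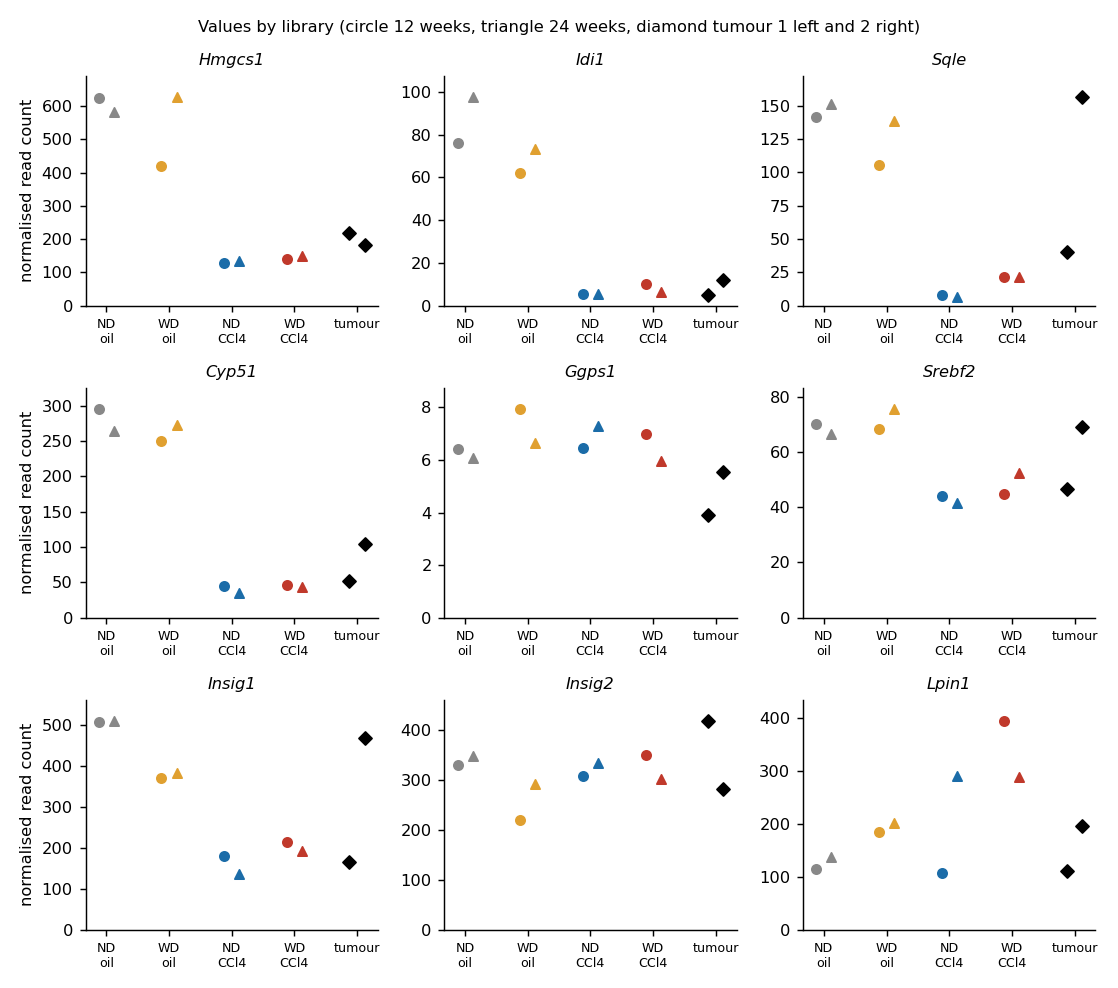
Normalised read counts are shown for 9 members by group, with circles for 12-week pools, triangles for 24-week pools and diamonds for the tumours, each panel with its own axis starting at 0. Hmgcs1, Idi1, Sqle and Cyp51 are low in all 4 CCl4 pools, Ggps1 and Insig2 overlap between oil and CCl4, and Sqle and Insig1 are high in tumour 2 and low in tumour 1.

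Of the SREBP control genes, Insig1, Scap and Srebf2 were lower and Insig2 was not called. Insig1, a retention gene that SREBP itself turns on, read 507 and 510.5 with oil on normal diet, 370.4 and 383 with oil on Western diet, 180.2 and 135 with CCl4 on normal diet and 214 and 191 with CCl4 on Western diet. The groups did not overlap, and the Western-diet oil pools lay between the normal-diet oil pools and the CCl4 pools. Insig1 fell by 1.30 ± 0.10 over both diets (adjusted p = 8.06e-05). Insig2, the second retention gene, read 330.0 and 348, then 219.7 and 293 in the oil pools of the 2 diets, and 308 and 334, then 351 and 303 in the CCl4 pools. These ranges overlapped, and Insig2 changed by 0.14 ± 0.11 without passing the test (adjusted p = 0.329). Under quantile normalization it was higher, at 0.39 (adjusted p = 0.0142). Srebf2, which encodes SREBP2, read 70.0 and 66.6, then 68.2 and 75.6 in the oil pools and 44.2 and 41.4, then 44.6 and 52.5 in the CCl4 pools. It fell by 0.61 ± 0.09, less than any of the called enzymes (adjusted p = 0.00135). Scap, the escort of SREBP2, read 192 and 140.0, then 165 and 141 in the oil pools and 109.7 and 84.9, then 88.9 and 86.4 in the CCl4 pools. Here too every CCl4 pool was below every oil pool, and Scap fell by 0.78 ± 0.09 (adjusted p = 4.88e-04).

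The further SREBP2 targets did not move as 1 group. Stard4, a cholesterol carrier of the cytosol, read 87.6 and 88.7, then 94.4 and 90.8 in the oil pools of the 2 diets and 48.2 and 30.3, then 58.3 and 39.2 in the CCl4 pools. The groups did not overlap, and Stard4 fell by 1.06 ± 0.12 (adjusted p = 5.37e-04). Tmem97 was lower by a smaller amount over both diets (adjusted p = 0.00753) and was not called on normal diet alone (adjusted p = 0.223). Lpin1, a phosphatidate phosphatase gene, read 115 and 138 with oil on normal diet, 185 and 203 with oil on Western diet, 108 and 290.5 with CCl4 on normal diet and 396 and 289.6 with CCl4 on Western diet. Thus 3 CCl4 pools were above every oil pool and the normal-diet CCl4 pool of 12 weeks was below them all. Its change over both diets, 0.65 ± 0.24, was not called (adjusted p = 0.0674) but was in edgeR (0.73, adjusted p = 0.0464), under quantile normalization (0.82, adjusted p = 0.0390), without that low pool (adjusted p = 0.00244) and without the 24-week joint pool (0.91, adjusted p = 0.0126). Lpin1 was the single member higher with the joint exposure (1.42 ± 0.34, adjusted p = 0.0168), a call lost where the 12-week pool of that exposure was left out (0.89, adjusted p = 0.0790) or either normal-diet oil pool (lowest adjusted p = 0.0606).

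The bases before the start of 3 members that fell together are shown with the matches that a search of this window found. Promoter entries (RefSeq, GRCm38.p6) were present for 24 members. The window was the 250 bases before the annotated start, read 5′ to 3′ on the gene's strand. Mvd lies on the minus strand (chr8:122443423-122443672) and Nsdhl on the plus strand (chrX:72918271-72918520). Both are among the 6 members that changed most with CCl4. The others of those 6 either had no entry or a window that reaches into the annotated span of the gene itself. Hmgcs1, on the plus strand (chr13:119690101-119690350), was added after the matches were seen. GENCODE starts Hmgcs1 and Nsdhl further downstream, at bases 119690379 and 72918557. The bases just after their RefSeq starts were not found in their GENCODE transcripts, so positions below count from the RefSeq start. Capitals mark matches, on either strand, to 5 motifs. The sterol response element was searched as TCACNCCAC and in the shorter form TCACNCC. The NF-Y motif was searched as ATTGG, the Sp1 motif or GC box as GGGCGG, and the E-box as CACGTG.
Mvd: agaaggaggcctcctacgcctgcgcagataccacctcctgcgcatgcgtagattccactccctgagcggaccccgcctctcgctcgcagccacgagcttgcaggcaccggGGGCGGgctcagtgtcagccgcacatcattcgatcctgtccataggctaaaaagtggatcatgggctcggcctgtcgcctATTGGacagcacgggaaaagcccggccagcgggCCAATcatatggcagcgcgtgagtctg
Hmgcs1: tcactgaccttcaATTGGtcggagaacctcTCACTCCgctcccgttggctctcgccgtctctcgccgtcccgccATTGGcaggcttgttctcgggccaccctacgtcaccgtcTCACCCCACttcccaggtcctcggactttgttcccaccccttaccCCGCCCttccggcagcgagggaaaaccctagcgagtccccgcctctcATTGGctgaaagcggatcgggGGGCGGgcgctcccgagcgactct
Nsdhl: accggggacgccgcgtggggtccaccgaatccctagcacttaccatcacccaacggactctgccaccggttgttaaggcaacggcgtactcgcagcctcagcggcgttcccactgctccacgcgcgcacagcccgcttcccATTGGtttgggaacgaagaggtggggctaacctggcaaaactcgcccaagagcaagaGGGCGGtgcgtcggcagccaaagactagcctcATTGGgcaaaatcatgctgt
The full element TCACNCCAC was found in the window of 1 member of 24, Hmgcs1, 137 to 129 bases before the start, and in 1.22% of 27025 genes with an entry. The shorter TCACNCC, which lies within it, was found in 6 of 24 members and in 15.1% of genes. ATTGG was found in 20 of 24 members (83.33%) against 37.49% of genes, and GGGCGG also in 20 (83.33%) against 35.36%. CACGTG was found in 5 of 24 (20.83%) against 6.86%. Base composition was not matched between members and other genes, and a missing match says only that these letters are not in this window.

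Genes linked to the pathway but outside the 28 did not move as a block with CCl4. The counts below are for CCl4 over both diets, where 19% of all tested genes were higher and 14.2% lower. A pair of further SREBP2 targets was lower: Mmab, neighbour of Mvk across a shared promoter region, which fell by 1.09 ± 0.12, and the retinol dehydrogenase gene Rdh11, which fell by 1.73 ± 0.08. Of 11 genes for SREBP processing and sterol sensing, 2 were higher and 3 lower, with a median of -0.02. The ubiquitin ligase gene Rnf145 rose by 1.04 ± 0.10 and the deubiquitinase gene Usp20 by 0.71 ± 0.12, while the lower Pgrmc1, at -0.47, encodes a haem-binding membrane protein. Of 5 electron donors and reductases, the P450 reductase gene Por rose by 1.07 ± 0.10, and Cyb5b, Lbr and Cyb5a were lower, at -0.61, -0.42 and -0.38. Of 13 genes of the non-sterol isoprenoid branches 1 was called, Rabggtb at -0.47, and the median was -0.06.

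Genes for the storage and export of sterol, and for fatty acid synthesis, were mostly higher or not called. The same shares of all tested genes, 19% higher and 14.2% lower, apply to these counts. Of 7 storage and trafficking genes 3 were higher and 0 lower, led by the cholesterol esterifying enzyme gene Soat1, which rose by 1.22 ± 0.16. Of 9 genes that include targets of the sterol receptor LXR, 5 were higher and 0 lower. The sterol exporter gene Abcg1 rose by 1.59 ± 0.14, and the biliary exporter pair Abcg5 and Abcg8 by 1.33 ± 0.09 and 1.06 ± 0.14. Of 14 genes for SREBP1 and fatty acid synthesis, 9 were higher and 2 lower, with a median of 0.62. The desaturase genes Scd1 and Fads2 rose by 1.55 ± 0.26 and 1.42 ± 0.12, while Acly, which makes cytosolic acetyl-CoA from citrate, fell by 0.58 ± 0.09. Mvd and its neighbours in the mevalonate arm were thus lower in the same pools in which most of the fatty acid genes called were higher. The difference between the lists was not tested.

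**Figure D4:**
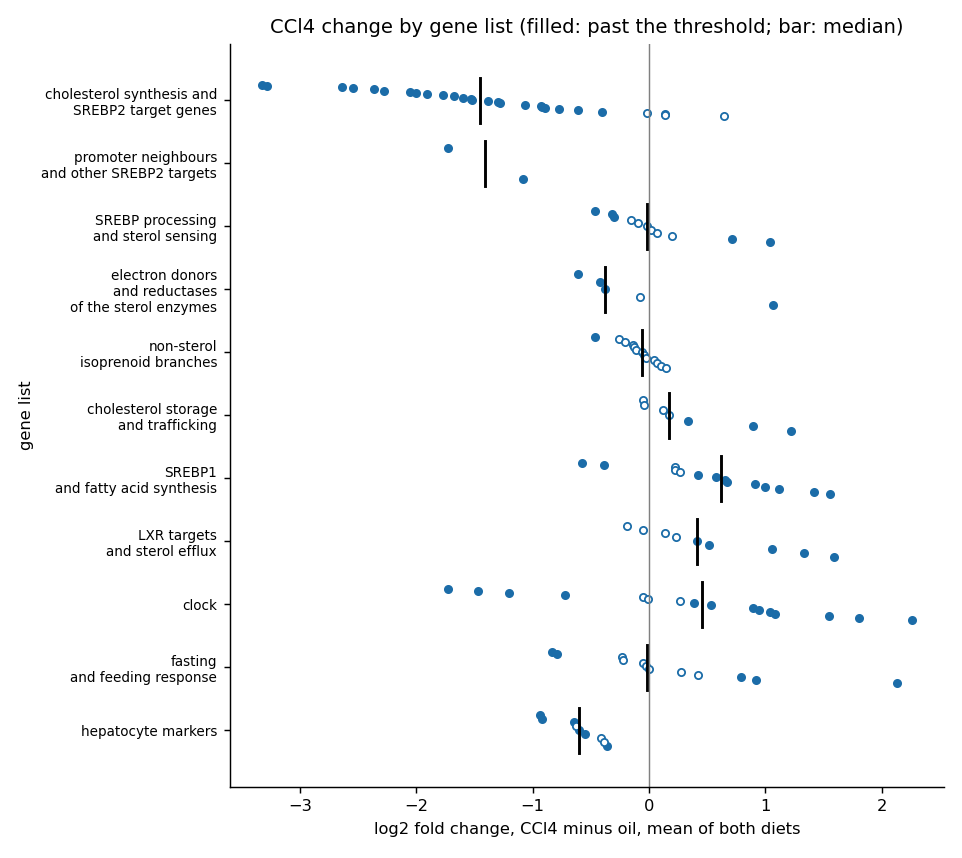
Each point is 1 tested gene of the list named at the left, placed at its change with CCl4 over both diets on the log2 scale, filled where past the threshold, with a bar at the list's median. The members have a median of -1.46, the genes of SREBP processing of -0.02, and those of SREBP1 and fatty acid synthesis of 0.62.

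Western diet with oil, compared with normal diet with oil, gave no called member in limma, against 0.546% of all tested genes lower and 1.45% higher, and edgeR and DESeq2 also called 0. At an unadjusted p under 0.05 there were 7, all lower, where 6.74% of all tested genes were lower and 10.8% higher: Acat2, Pmvk, Mvd, Fdps, Hsd17b7, Insig1 and Insig2. In all, 21 of 28 were below their normal-diet value, with a median of -0.21 against 0.02 over all tested genes, of which 46.8% were below. The lowest adjusted p-value was that of Pmvk (0.133), with 80.1 and 92.1 on the normal and 67.0 and 56.4 on the Western diet. Its groups did not overlap, and neither did those of Insig1, whose change was -0.43 ± 0.14 (adjusted p = 0.159). Hepatocyte markers were not called in this comparison, while 3 of 7 macrophage and 3 of 6 stellate cell markers were higher. Gpnmb, a macrophage marker, stood at 4.11 and the collagen gene Col1a1 at 2.32, and their part in the members' values was not tested.

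Western diet with CCl4, compared with normal diet with CCl4, gave 0 members lower and 1 higher, against 0.0395% and 0.00791% of all tested genes. The member was Sqle, with 8.11 and 6.86 on the normal and 21.4 and 21.3 on the Western diet, a rise of 1.40 ± 0.15 or 2.64-fold (adjusted p = 0.0230). The call was lost when any 1 of 6 of the 8 pools was left out (adjusted p up to 0.0951), the 24-week CCl4 pools being the exceptions, with no filter, with no trend in the limma fit (adjusted p = 0.129), and with the tumours in the fit (adjusted p = 1.0). In the read-count fits Sqle kept its call, at 1.52 in edgeR and 1.53 in DESeq2. At an unadjusted p under 0.05 there were 6 members, all higher, where 2.95% of all tested genes were higher and 4.08% lower: Mvd, Fdft1, Sqle, Nsdhl, Insig1 and Lpin1.

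The difference of the CCl4 change between the diets was tested as an interaction. There 1 member, Sqle again, was higher and 0 lower, against 0.0553% and 0.0474% of all tested genes. Its fall with CCl4 was smaller on Western diet by 1.67 ± 0.21 (adjusted p = 0.0320). By duration, in the same pools that the test used, the changes were -3.97 and -4.28 on the normal and -2.25 and -2.65 on the Western diet. The Sqle call was lost when any 1 of 6 pools was left out, with adjusted p-values up to 0.262 and values from 1.46 to 1.89. The exceptions were the normal-diet CCl4 pool at 12 weeks and the Western-diet one at 24 weeks. It was also lost with no filter, a filter of 10, quantile normalization, no trend or the tumours in the fit (lowest adjusted p = 0.0517). Of the 28 members 23 had a positive interaction, while 53.5% of all tested genes had a negative one, and the members' median was 0.35 against -0.03. Insig1 (0.81, adjusted p = 0.256) and Mvd (0.97, adjusted p = 0.343) had the next smallest p-values. DESeq2 also called Insig1 higher (0.83, adjusted p = 0.0244), where it called 0.293% of all tested genes higher and 0.751% lower, and edgeR did not (adjusted p = 0.293). None of the other 26 was called for this difference under any alternative run, which does not show that their changes were alike on the 2 diets.

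Duration changed no member past the threshold. No gene of the 12648 was called at 24 against 12 weeks (0% lower and 0% higher), edgeR and DESeq2 called 0 members, and 4 members had an unadjusted p under 0.05, all lower, where 5.07% of all tested genes were lower and 6.59% higher: Acss2, Tm7sf2, Scap and Stard4. The largest was Tm7sf2, at -0.45 ± 0.13 (adjusted p = 0.343), and the members' median was -0.02.

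The 2 tumours differed from each other, with tumour 2 above tumour 1 by 2.01 for Scap, 1.95 for Sqle and 1.94 for Stard4 on the log2 scale. Against the Western-diet CCl4 livers no member was called in limma, where 0.506% of tested genes were lower and 0.466% higher. At an unadjusted p under 0.05 there were 7, of which Pmvk, Mvd, Fdps, Sqle and Nsdhl were higher and Ebp and Lpin1 lower, where 7.8% of all tested genes were higher and 8.91% lower. EdgeR called 0, and DESeq2 called 4, with Mvd, Sqle and Nsdhl higher and Lpin1 lower, against 2.47% of all tested genes higher and 3.42% lower. Set beside the 24-week Western-diet CCl4 pool, tumour 1 had 15 of 28 members higher with a median difference of 0.05, and tumour 2 had 22 higher with a median of 0.56. Over all tested genes these medians were -0.03 and 0.03.

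Tumour 2 exceeded that liver pool by more than 1 on the log2 scale in 9 members (32.1%, where 4.33% of all tested genes did): Mvk, Sqle, Lss, Cyp51, Sc5d, Dhcr7, Scap, Insig1 and Stard4. The other 5 sterol ring genes were not among them, with differences from -0.26 for Ebp to 0.95 for Nsdhl, and neither was Fdft1, at 0.56. Tumour 1 did so in 0 members, where 4.44% of all tested genes did, and was lower by more than 1 in Ebp and Lpin1. Sqle read 21.3 in the liver pool, 39.9 in tumour 1 and 157 in tumour 2. The value in tumour 2 was above every oil pool. Insig1 read 191, 165 and 469 in the same order, and Scap read 86.4, 51.8 and 211. For both, tumour 1 was the lowest of the 10 libraries or close to it and tumour 2 was at the level of the oil pools or above. In all, tumour 2 lay above the range of the oil pools in 6 members, within it in 5 and below it in 17. Tumour 1 lay above it in 2 (Insig2 and Tmem97), within it in 0 and below it in 26. These positions were not counted over all tested genes, so whether the members are unusual in them is not known.

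Other members were below the oil pools in both tumours. Idi1 read 5.24 and 12.1, Hmgcs1 read 218 and 183, and Mvd read 15.7 and 18.2, each under the lowest oil pool. Hmgcs1 and Mvd were in both tumours above the CCl4 pools, which read 127 to 150 and 4.93 to 8.96. For Idi1, with CCl4 pools of 5.55 to 10.1, tumour 1 was below them and tumour 2 above. Acss2, at 78.5 in tumour 2 and little more in tumour 1, was below even the CCl4 pools. With tumour 1 left out 13 members were called, all higher, where 8.73% of all tested genes were higher and 10.2% lower. With tumour 2 left out 8 were called, 4 higher and 4 lower, where 9.26% of all tested genes were higher and 8.6% lower, the lone tumour then being assumed to vary like the pools. Scap changed direction between these fits, from 1.39 without tumour 1 to -0.61 without tumour 2. The summed hepatocyte markers were 88828 in tumour 1 and 253304 in tumour 2, of which Alb made up 203789. Of the 9 tested markers tumour 2 lay above every liver pool in 4 (Alb, Apoa1, Fga and Fgb) and below every one in 4, with 3330 for Apoa2, 3496 for Ttr, 1864 for Cps1 and 668 for Tat. The macrophage and stellate cell sums were 470 and 528 in tumour 1 and 354 and 231 in tumour 2. Their part in the difference between the tumours was not tested.

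**Figure D5:**
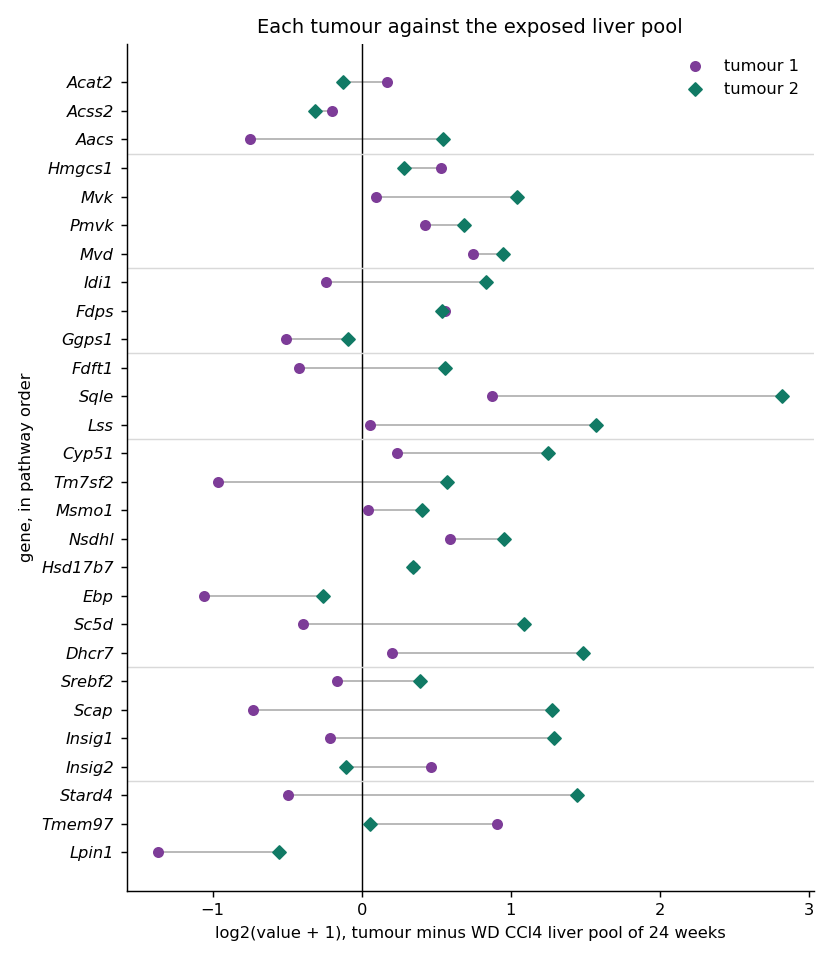
For each member the value of log2(value + 1) in tumour 1 (circles) and tumour 2 (diamonds) is shown minus that of the 24-week Western-diet CCl4 liver pool at 0, with a line joining the 2 tumours. Tumour 2 lies past 1 in 9 members and reaches 2.82 for Sqle, while tumour 1 lies past 1 in none and below -1 in Ebp and Lpin1.

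Some members share transcribed sequence with other annotated genes, and the sources used here do not say whether reads were assigned by strand. The share of exon bases was 26.7% for Fdps with Gm43738 and 12.1% for Tm7sf2 with Vps51, both on the same strand. With genes on the opposite strand it was 18.3% for Fdft1 with Ctsb, 13.2% for Scap and 12.1% for Hmgcs1. It was under 10% for Idi1, Acss2, Cyp51, Lss and Ggps1, also on the opposite strand. Their values may hold reads of those partners. Acat2 has the close paralogue Acat3, between which reads could be split.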

How the data were processed

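Liver was flash-frozen, and poly-A RNA libraries were made with a TruSeq kit, per the labels' protocols. Reads were aligned with STAR to mm10, per the submitters' processing notes; the sources used here name no version, counter, annotation or scaling. The authors deposited 1 table of 24062 genes by 10 libraries as normalised signal. In each library 99.99% of the values above 0, or all of them, were a whole read number, within 0.01 reads, times 1 constant. Totals were 23206229 to 30137802 reads, and each member had at least 100 reads in every library, for which the Poisson counting error of 1 library is about 0.14 on the log2 scale or less. A value of 0 would allow 3 reads.

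Genes were tested where 2 or more libraries reached a value of 1. On log2(value + 1), limma 3.58.1 (R 4.3.3; eBayes with trend; two-sided) fitted a mean for every pair of diet and treatment plus a duration term, leaving 3 residual degrees of freedom in the 8 pools and 4 with the tumours. Benjamini-Hochberg adjustment ran over all tested genes within each of 9 comparisons. Alternatives were a pseudocount of 0.1, other filters and scalings, array weights, a fit without trend or without duration, the tumours added to the liver fit, each library left out, and count tests on the recovered reads (DESeq2 1.42.0 and edgeR 4.0.16). The fits were tested on simulated data. Exon lengths and overlaps are from GENCODE (GRCm38), and promoters from RefSeq.

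Members, lists and tests were chosen with earlier results of these data known. Values in every library are given for the member with the largest CCl4 change in each role, members unlike their role, members called elsewhere and the SREBP control genes, and up to 4 called genes are named of each further list. The values of Pmvk were added after they were seen. List genes Cyb5a and Adgre1 matched by an older symbol. Further genes of the pathway were not analysed here.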

Additional observations from a re-analysis of the deposited data

Results flagged for a closer look

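The CCl4 change of Sqle differed between the diets by the interaction test, with a value on Western diet minus that on normal diet of 1.67 on the log2 scale. The library values behind it were 142 and 151 with oil and 8.11 and 6.86 with CCl4 on normal diet, and 106 and 139 with oil and 21.4 and 21.3 with CCl4 on Western diet. The adjusted p of 0.0320 was near the threshold. The difference had the same sign in the pools of 12 and of 24 weeks, which are the pools the test used and so no separate support.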

How the results depend on the processing

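With CCl4 over both diets 20 to 24 members were called lower under every alternative run, and 23 or 24 with a library left out. With all 24062 genes in the fit, 6447 of them 0 in every library, members called fell to 4 for CCl4 on normal diet, 0 on Western diet, 5 for the joint exposure, 0 for Western diet with CCl4 and 0 for the interaction. Keeping genes with a read in the fit, an alternative chosen after seeing that, lost only the last pair (0 and 0), as did the fit with no trend (0 and 0). With all 10 libraries in 1 fit the counts were 15, 4, 15, 0 and 0 in the order above. The interaction also had 0 with the filter of 10 and with quantile normalization, and 2 in DESeq2 (Sqle and Insig1), which called 4 members in the tumours. Leaving out 1 library gave 22 to 24 members for CCl4 on normal diet, 9 to 25 on Western diet, 21 to 25 for the joint exposure, 0 to 2 for Western diet with CCl4, 0 to 1 for the interaction and 0 to 13 for the tumours. Scap in the tumours was 0.39 with both, 1.39 without tumour 1 and reversed to -0.61 without tumour 2. The causes were not tested. No member was called for Western diet with oil or for duration under any alternative run. The labels give the pools no replicate numbers, so pools were matched across diet and treatment by duration only. Pools of the same duration share the duration term of the fit. With 1 pool per condition and 2 tumours, the spread between animals is unknown, and small changes are not detectable.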

Other observations

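Clock genes were among those that differed between the same pools, and the hour of collection is not given in the sources used here. Of 16 clock genes, 9 were higher and 4 lower with CCl4 over both diets, against 19% and 14.2% of all tested genes. For Western diet with oil 7 were higher and 0 lower, against 1.45% and 0.546%. In the interaction test 0 were higher and 1 lower, against 0.0553% and 0.0474%. The lower one was Dbp, at -3.99 (adjusted p = 0.00471). The output factor Dbp read 1.46 and 2.10 with oil on normal diet, 55.9 and 38.4 with oil on Western diet, 63.6 and 42.2 with CCl4 on normal diet, 62.4 and 50.1 with CCl4 on Western diet, and 1.06 and 85.3 in tumours 1 and 2. Dbp was therefore higher in the Western-diet oil pools and in all CCl4 pools than in the normal-diet oil pools. Arntl, a core activator of the clock, read 33.5 and 30.4, then 17.3 and 23.6 in the oil pools of the 2 diets, 5.53 and 6.12, then 8.87 and 7.93 in the CCl4 pools, and 25.4 and 3.65 in the tumours. Its oil and CCl4 pools did not overlap, with a change of -1.72 ± 0.12 (adjusted p = 6.67e-05). The part of collection time in the members' values was not tested.

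Of 12 genes of the fasting and feeding response 3 were higher and 2 lower with CCl4 over both diets. Among all tested genes 19% were higher and 14.2% lower, so these counts do not set the list apart. The fasting hormone gene Fgf21 stood at 2.13 ± 0.39 and the carnitine palmitoyltransferase gene Cpt1a at 0.92 ± 0.10. G6pc, which releases glucose, fell by 0.84 ± 0.12 and the insulin receptor substrate gene Irs2 fell by 0.79 ± 0.19.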
